A study of Mus musculus with 6 samples.

Results

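The semaphorins with their plexin and neuropilin receptors, and the ephrins with their Eph receptors, were followed through neuronal differentiation of mouse embryonic stem cells. The members were found by gene symbol (Sema3 to Sema7, Plxna to Plxnd, Nrp1 and Nrp2, Epha and Ephb, Efna and Efnb), which gave 53 of the 46517 genes in the deposited tables. They are 20 semaphorins, 9 plexins, 2 neuropilins, 14 Eph receptors and 8 ephrins. RNA of the wild-type mouse embryonic stem cell line E14TG2a was sequenced on an Ion Proton at 3 stages. In the first, mESC, the cells had no differentiation treatment and were kept without feeder cells in serum and LIF, a cytokine that holds them pluripotent. The second, NPC, holds neuronal progenitors. The third is labelled NC without a further explanation and is read here as the terminally differentiated glutamatergic pyramidal neurons of the design text. NPC and NC were both made from the same line by a published protocol of neuronal differentiation. Each stage had 2 libraries, described as biological replicates, and the labels name no culture or day that libraries of one number share. All values are from bulk cultures of this 1 line, and p-values measure the spread between these libraries only.

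Semaphorins and ephrins are cues that steer growing axons and migrating cells, mostly by repulsion. Class 3 semaphorins are secreted and bind neuropilins, which pair with A-type plexins that carry the signal inwards. Semaphorins of classes 4 to 6 span the membrane and bind plexins directly, while Sema7a is held by a lipid anchor. Eph receptors are receptor tyrosine kinases that read ephrins on the surface of touching cells, and the ephrins can signal back into the cell that carries them. Ephrin-A proteins have a lipid anchor and bind mainly EphA receptors, whereas ephrin-B proteins span the membrane and bind mainly EphB receptors.

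Promoters are shown for the 3 members with the highest fitted rise from mESC to NPC among those with a promoter in the RefSeq table, and for Epha2, the member with the deepest fitted fall, which was added after its values were seen. The sequences are RefSeq promoters on GRCm38.p6, the same assembly as mm10, of 300 bases each, from 250 before to 50 after an annotated start site, written 5′ to 3′ on the strand of the gene. Capitals mark the hexamer GGGCGG, known as the GC box, or CACGTG, known as the canonical E-box, on either strand.
Epha3 (chr16:63864126-63864425, minus strand): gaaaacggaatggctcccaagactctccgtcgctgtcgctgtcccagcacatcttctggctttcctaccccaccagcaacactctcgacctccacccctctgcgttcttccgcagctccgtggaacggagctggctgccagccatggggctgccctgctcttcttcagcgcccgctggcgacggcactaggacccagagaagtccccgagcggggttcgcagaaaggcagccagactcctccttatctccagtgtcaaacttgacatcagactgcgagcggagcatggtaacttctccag
Plxna2 (chr1:194619579-194619878, plus strand): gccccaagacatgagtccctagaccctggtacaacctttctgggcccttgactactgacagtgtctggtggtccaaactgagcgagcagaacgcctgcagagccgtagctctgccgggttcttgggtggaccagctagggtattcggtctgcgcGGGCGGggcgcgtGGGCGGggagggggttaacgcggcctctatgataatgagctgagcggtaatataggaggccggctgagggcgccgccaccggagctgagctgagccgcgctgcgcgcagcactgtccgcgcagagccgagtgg
Sema6d (chr2:124089719-124090018, plus strand): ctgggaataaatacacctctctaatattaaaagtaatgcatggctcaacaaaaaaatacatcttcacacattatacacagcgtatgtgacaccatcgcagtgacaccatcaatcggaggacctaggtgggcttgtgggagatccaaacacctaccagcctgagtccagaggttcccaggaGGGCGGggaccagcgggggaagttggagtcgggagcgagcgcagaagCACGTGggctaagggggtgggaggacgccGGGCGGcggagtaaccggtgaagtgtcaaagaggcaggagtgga
Epha2 (chr4:141300971-141301270, plus strand): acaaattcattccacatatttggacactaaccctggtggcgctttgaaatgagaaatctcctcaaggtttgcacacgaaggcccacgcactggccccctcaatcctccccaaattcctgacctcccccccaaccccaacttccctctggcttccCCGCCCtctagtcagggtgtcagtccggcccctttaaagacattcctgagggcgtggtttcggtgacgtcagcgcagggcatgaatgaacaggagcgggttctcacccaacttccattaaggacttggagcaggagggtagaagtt
The Epha3 window held 18 CpG dinucleotides and no GC box, the Plxna2 window 25 and 2, the Sema6d window 14 and 2, and the Epha2 window 10 and 1. The start sites lay 17, 1611, 0 and 19 bases from the 5′ gene ends in the deposited tables for Epha3, Plxna2, Sema6d and Epha2.

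Promoters of this length were found for 47 of the 53 members, taking for each the start site nearest to the deposited 5′ gene end. The site taken lay 271370 bases from that end for Sema3a and 37064 for Sema4d. The promoters of all genes, set beside them below, were not cut to 1 per gene. GGGCGG occurred on either strand in 36 of these 47 (76.6%), against 35.9% of 32544 distinct promoters of all genes. The member promoters were richer in G and C, with a median of 64.3% and 21 CpG, against 53% and 7 CpG over all promoters, which include non-coding genes. The E-box CAGCTG was found in 17.0% of the member promoters and in 16.4% of all, and CAGATG, counted with its complement CATCTG, in 8.51% and 17.1%. CACGTG stood in 6.38% of the member promoters and 7.17% of all. The E-box CATATG and the octamer ATGCAAAT were in none of the 47, and in 3.87% and 1.75% of all promoters. GC boxes can sit inside longer G-rich runs and were counted wherever the letters occurred.

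Summed over all members, expression of the guidance genes increased with each stage, while the EphA receptors summed lower in NPC than in mESC. The summed abundance of the 53 genes was 1044 and 706 TPM in the mESC libraries, 1315 and 1508 TPM in NPC, and 2569.7 and 2512 TPM in NC, where TPM is the deposited abundance per transcript length at a fixed total per library. At least 1 TPM was reached by 39 and 37 members in the mESC libraries, by 49 and 50 members in NPC and by 51 in each NC library, and at least 20 TPM by 12 and 10, by 24 in each, and by 37 and 35. The most abundant member was Epha2 in mESC, with 189.9 and 135 TPM, and Plxnb2 in NPC, with 119 and 137 TPM, and in NC, with 186 and 188 TPM. A pair of members, Sema3g and Plxnb3, missed the filter of 1 TPM in at least 2 libraries and were not tested. Sema3g lay between 0.189 and 2.36 TPM in the 6 libraries, and Plxnb3 at 0.541 and 0.150 TPM in mESC, 0 in each NPC library, and at 0 and 0.166 TPM in NC.

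**Figure D1:**
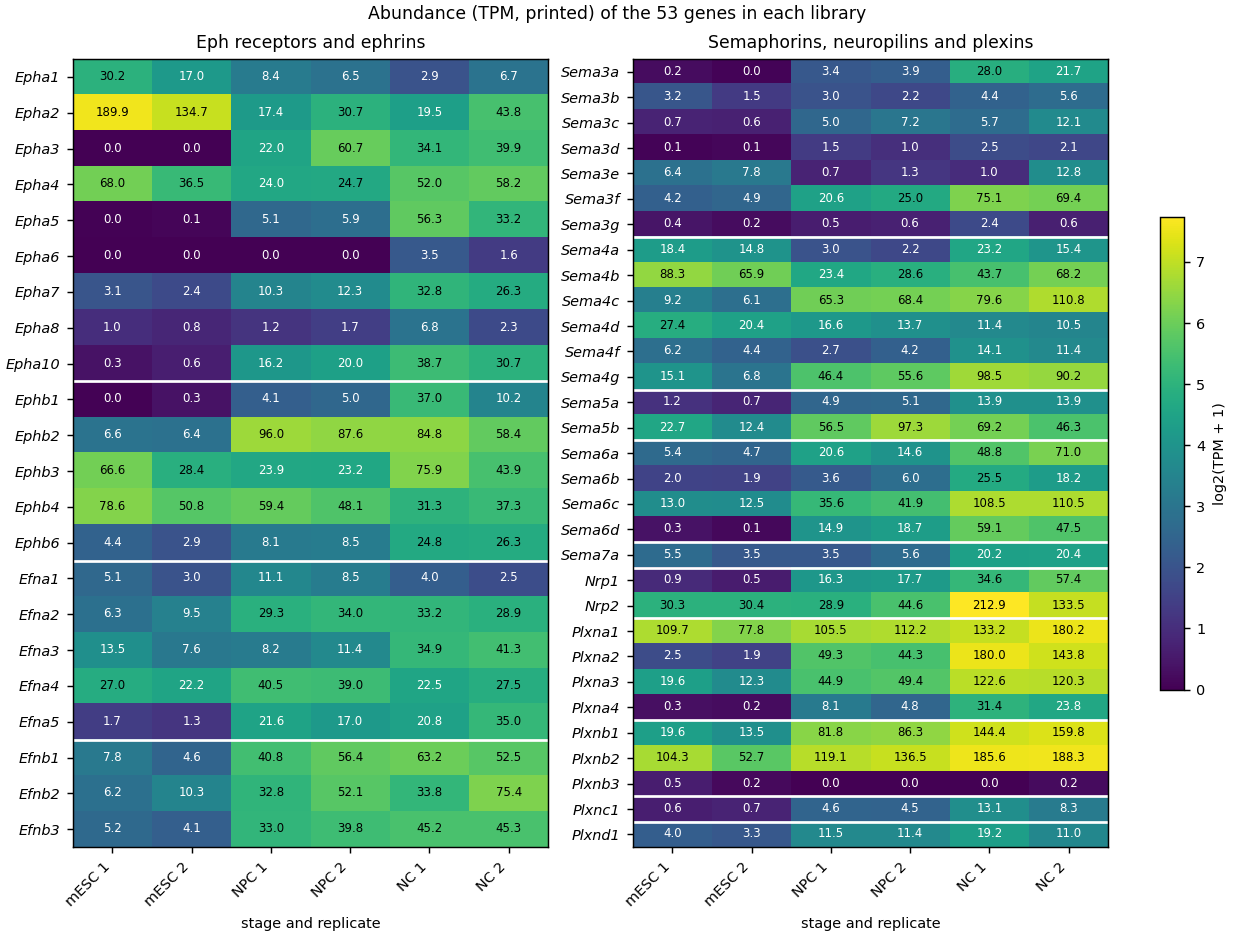
Abundance of the 53 genes in each of the 6 libraries, with stages and replicates along the x axis and genes down the y axis. Colour gives log2(TPM + 1) and the printed number the TPM, and white lines part the subfamilies. Epha2 is brightest in mESC, at 189.9 and 135 TPM, while most rows of both panels are brightest in NC.

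Between NPC and mESC, 33 of the 51 tested members were higher and 5 lower in NPC by a limma fit of log2(TPM + 1) to all 6 libraries, with p-values adjusted over all genes by Benjamini-Hochberg and a threshold of 0.05. Over all 20232 tested genes 40.0% changed, 26.0% higher and 14.0% lower in NPC. The median log2 fold change was 1.54 over the members and 0.18 over all genes. With median-of-ratios scaling the median of all genes moved to -0.01 and the share of higher genes among all changed genes from 65.0% to 52.8%, and 30 members were higher and 6 lower. In bulk RNA more cells of a type and more RNA per cell cannot be told apart. Of the 38 members called, 24 passed under all 15 other settings, and those that lost the call under some are named with their families.

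Between NC and NPC, 26 of the 51 tested members were higher and 2 lower in NC, against 25.3% of all tested genes changed, 15.2% higher and 10.1% lower. The median log2 fold change was 1.06 over the members and 0.11 over all genes. These calls rest on both NPC libraries. Without NPC replicate 1 only Sema4a of the 28 passed (limma adjusted p from 0.0490 to 0.253 over the 28), when 309 of all genes were called, and without NPC replicate 2 the count was 11, when 1276 were. All 28 kept their direction in both cases. With either NC library left out 20 members were called, and 9 of the 28 lost their call under at least 1 setting that kept all libraries, namely Epha4, Epha10, Ephb1, Efna1, Efna4, Nrp1, Sema4b, Plxnb1 and Plxnc1. Under quantile normalization 47.7% of all changed genes were higher in NC, against 60.1% as deposited, and 23 members were higher and 3 lower. The NPC libraries enter this comparison as well as the one with mESC.

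Between NC and mESC, 39 of the 51 tested members were higher and 4 lower in NC, against 59.9% of all tested genes changed, 37.8% higher and 22.1% lower. The median log2 fold change was 2.52 over the members and 0.31 over all genes, 0.05 after median-of-ratios scaling, when 38 members were higher and 5 lower and higher genes made up 52.4% of all changed genes in place of 63.2%. The call was lost under at least 1 of the 15 settings for 8 of the 43, namely Epha1, Epha2, Epha8, Ephb4, Sema4f, Sema5b, Plxna1 and Plxnb2 (highest limma adjusted p between 0.0504 and 0.139).

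The marker lists followed the stage names in part, although the cell type label of all 6 libraries is that of stem cells. All 6 pluripotency markers were lower in NPC than in mESC, all 6 neural progenitor markers were higher, and all 7 neuron markers were higher in NC than in NPC. Of the neuron markers, 5 were higher and 1, Stmn2, lower in NPC than in mESC. Of the progenitor markers, 1 was higher (Fabp7) and 1 lower (Pax6) in NC than in NPC. Their sum was 1186 and 386 TPM in NC, against 845 and 743 TPM in NPC. Markers of other cell types were detected too. Fibroblast and smooth muscle markers were higher in NC than in NPC for 7 of 8 tested genes, with summed levels of 884 and 1094 TPM in NC, 70.4 and 97.3 TPM in NPC, and 149 and 86.1 TPM in mESC. Neural crest markers were higher in NC for 4 of 5 tested genes, at 112 and 133 TPM in NC against 23.8 and 36.2 TPM in NPC. Over all tested genes 15.2% were higher in NC than in NPC. Endothelial markers summed to 13.1 and 19.4 TPM in NC, 49.7 and 39.8 TPM in NPC, and 49.2 and 28.6 TPM in mESC. These sums rest largely on single genes, with Flt1 at 41.3 and 31.5 TPM in NPC and Pecam1 at 34.8 and 19.7 TPM in mESC. Of the 6 tested endothelial genes, Flt1 was higher and Pecam1 and Tek were lower in NPC than in mESC, against 26.0% and 14.0% of all tested genes. Of the immune markers, Ptprc reached at most 0.0292 TPM and Cx3cr1 at most 0.0129 TPM. Aif1 was listed at 0 in 5 libraries and at 0.747 TPM in 1 NC library. Cd68 lay between 3.07 and 8.80 TPM in the 6 libraries. Csf1r had 1.21 and 2.48 TPM in NC, higher than in NPC (limma adjusted p = 0.0412). Epithelial markers, which stem cells share, summed to 707 and 391 TPM in mESC, 377 and 238 TPM in NPC, and 80.6 and 312 TPM in NC. Endoderm markers summed to 92.2 and 21.3 TPM in mESC, 184 and 124 TPM in NPC, and 28.5 and 53.1 TPM in NC. Of these 6 genes 2, Sox17 and Foxa2, were higher in NPC than in mESC, against 26.0% of all tested genes. The part of these cell types in the results on the guidance genes was not tested.

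The EphA receptors had Epha2 as their leading gene in mESC, and no gene that led in both libraries of a later stage. They summed to 293 and 192 TPM in mESC, 105 and 163 TPM in NPC, and 247 and 243 TPM in NC. Epha2, a receptor widely used by epithelia, held 64.9% and 70.2% of this sum in the mESC libraries, 16.7% and 18.9% in NPC, and 7.90% and 18.05% in NC. Its level was 17.4 and 30.7 TPM in NPC, against 189.9 and 135 TPM in mESC, with no overlap (log2 fold change of -2.73 with an SE of 0.42, adjusted p = 0.00317 by limma). The call was lost without mESC replicate 1 (limma adjusted p = 0.0518). NC stood at 19.5 and 43.8 TPM for Epha2, a range that overlaps that of NPC. Epha1, the other receptor that stem cells held at higher levels, stood at 8.39 and 6.51 TPM in NPC, against 30.2 and 17.0 TPM in mESC (log2 fold change -1.498, limma adjusted p = 0.0274), a call lost in 5 settings, among them without either library of either stage (highest limma adjusted p = 0.177), and at 2.94 and 6.71 TPM in NC. Of the epithelial markers, Epcam and Cdh1 were lower in NPC than in mESC as well, while Krt8 and Krt18 did not pass (log2 fold changes 0.43 and 1.30). The part of epithelial character in the levels of Epha1 and Epha2 was not tested. On the other strand, the protein-coding gene Zyx, at up to 143 TPM, overlaps 6.01% of the exon bases of Epha1. The part of Zyx reads in the Epha1 values was not tested.

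In place of Epha2, several EphA receptors of the nervous system appeared. Epha3, known from motor axons, had 22.0 and 60.7 TPM in NPC, while each mESC library lists it at 0 (limma adjusted p = 0.000305). It made up 21.1% and 37.4% of EphA RNA in NPC, where Epha4 made up 22.9% and 15.2%. Epha3 stayed at 34.1 and 39.9 TPM in NC, within the range of the NPC libraries. Epha10, a receptor without kinase activity, was at 16.2 and 20.03 TPM in NPC, against 0.289 and 0.557 TPM in mESC (log2 fold change of 3.75 with an SE of 0.25, adjusted p = 0.000127 by limma), and at 38.7 and 30.7 TPM in NC (log2 fold change 0.90 over NPC, limma adjusted p = 0.0408, lost in 13 settings). Both stages lay above mESC without overlap.

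Epha5 and Epha7, receptors that order axon maps by graded levels, were higher at both steps. Epha5 had 56.3 and 33.2 TPM in NC, against 5.10 and 5.90 TPM in NPC (log2 fold change of 2.77 with an SE of 0.31, adjusted p = 0.00357 by limma), and only 0.0251 and 0.0721 TPM in mESC. Epha7 had 32.8 and 26.3 TPM in NC, against 10.3 and 12.3 TPM in NPC (log2 fold change 1.31, limma adjusted p = 0.0116), after 3.15 and 2.37 TPM in mESC. Epha6 was at 0 in each mESC library and in 1 NPC library, at 0.000501 TPM in the other, and at 3.49 and 1.56 TPM in NC (limma adjusted p = 0.0109 against NPC). Epha8 stayed between 0.768 and 6.80 TPM in all 6 libraries, and NC over NPC (limma adjusted p = 0.111) was called without NC replicate 2 (0.0266). Epha4, which binds ephrins of both classes, dipped and came back. NPC held 24.0 and 24.7 TPM, below the 68.0 and 36.5 TPM of mESC (log2 fold change -1.004, limma adjusted p = 0.0300) and below the 52.0 and 58.2 TPM of NC (log2 fold change 1.15, NC over NPC, limma adjusted p = 0.0296). The fall of Epha4 was not called in 6 settings (highest limma adjusted p = 0.136), and its rise in 5 (highest 0.166), without NPC replicates 1 and 2 among both. In NC against mESC it did not pass (log2 fold change 0.14, limma adjusted p = 0.688), except without mESC replicate 1 (0.0319).

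Among EphB receptors the lead passed to Ephb2, which acts in axon guidance and at excitatory synapses. It stood at 96.0 and 87.6 TPM in NPC, against 6.64 and 6.36 TPM in mESC (log2 fold change of 3.63 with an SE of 0.21, adjusted p = 7.38e-05 by limma), and made up 50.1% and 50.8% of EphB RNA there, against 4.25% and 7.17% in mESC. NC had 84.8 and 58.4 TPM of Ephb2, lower in both libraries than NPC but not past the threshold (log2 fold change of -0.38 with an SE of 0.21, adjusted p = 0.225 by limma). In stem cells Ephb4, best known as the venous receptor for ephrin-B2, led with 78.6 and 50.8 TPM, and it stood at 59.4 and 48.1 TPM in NPC and 31.3 and 37.3 TPM in NC. NC against mESC passed for Ephb4 (log2 fold change -0.87, limma adjusted p = 0.0195, lost in 4 settings, among them without mESC replicate 1, NC replicate 1 or NC replicate 2, highest adjusted p = 0.106).

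Ephb3, Ephb1 and Ephb6 followed different courses. Ephb3 stood at 66.6 and 28.4 TPM in mESC, 23.9 and 23.2 TPM in NPC, and 75.9 and 43.9 TPM in NC (limma adjusted p = 0.150 for NPC over mESC, 0.0706 for NC over NPC and 0.438 for NC over mESC). Ephb1, which turns retinal axons at the optic chiasm, was at 37.0 and 10.2 TPM in NC, against 4.08 and 4.99 TPM in NPC (log2 fold change of 1.90 with an SE of 0.55, adjusted p = 0.0479 by limma), and was above mESC, at 0.0426 and 0.303 TPM, in both. Its rise into NC was not called in 13 of the 15 settings and that into NPC in 6. Ephb6, a second receptor without kinase activity, had 24.8 and 26.3 TPM in NC, against 8.09 and 8.48 TPM in NPC (log2 fold change of 1.52 with an SE of 0.24, adjusted p = 0.00773 by limma). NPC was above the 4.39 and 2.94 TPM of mESC (log2 fold change 1.01, limma adjusted p = 0.0157), a call lost in 4 settings, among them without mESC replicate 2, NPC replicate 1 or NPC replicate 2 (highest adjusted p = 0.107).

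All 3 ephrin-B ligands were higher in NPC than in mESC, where 26.0% of all tested genes were. Their sum was 107 and 148 TPM in NPC, against 19.3 and 19.0 TPM in mESC, and 142 and 173 TPM in NC. Efnb1 had 40.8 and 56.4 TPM in NPC, against 7.84 and 4.61 TPM in mESC (log2 fold change of 2.80 with an SE of 0.28, adjusted p = 0.000552 by limma), and Efnb3 33.0 and 39.8 TPM, against 5.22 and 4.07 TPM (log2 fold change of 2.73 with an SE of 0.19, adjusted p = 0.000164 by limma). Efnb2, which also marks arteries, had 32.8 and 52.1 TPM in NPC, against 6.21 and 10.3 TPM in mESC (log2 fold change of 2.23 with an SE of 0.43, adjusted p = 0.00746 by limma), a call lost without mESC replicate 1 and without NPC replicate 2 (highest adjusted p = 0.0824). In NC the 3 genes stood at 63.2 and 52.5, 45.2 and 45.3, and 33.8 and 75.4 TPM for Efnb1, Efnb3 and Efnb2. These overlap the NPC libraries for Efnb1 and Efnb2 and lie above both for Efnb3 (log2 fold changes over NPC 0.26, 0.29 and 0.31 for Efnb1, Efnb2 and Efnb3, limma adjusted p = 0.535, 0.668 and 0.283).

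The ephrin-A ligands went separate ways. Efna5, a ligand of graded axon maps, had 21.6 and 17.0 TPM in NPC, against 1.66 and 1.29 TPM in mESC (log2 fold change of 3.03 with an SE of 0.30, adjusted p = 0.000553 by limma), and Efna2, which acts beside it in the midbrain map, had 29.3 and 34.0 TPM, against 6.25 and 9.496 TPM (log2 fold change 1.90, limma adjusted p = 0.00127). In NC they stood at 20.8 and 35.0 TPM (Efna5) and 33.2 and 28.9 TPM (Efna2), which overlap NPC. Efna3 was the ephrin that rose at the last stage, with 34.9 and 41.3 TPM in NC, against 8.24 and 11.4 TPM in NPC (log2 fold change of 1.86 with an SE of 0.30, adjusted p = 0.00858 by limma). Efna1 and Efna4 were the 2 members lower in NC than in NPC. Efna1 had 3.95 and 2.54 TPM in NC, against 11.1 and 8.50 TPM in NPC (log2 fold change -1.36, limma adjusted p = 0.0280), and Efna4 had 22.5 and 27.5 TPM, against 40.5 and 39.0 TPM (log2 fold change -0.66, limma adjusted p = 0.0421). Both had been higher in NPC than in mESC, at 5.12 and 2.97 TPM for Efna1 and 27.0 and 22.2 TPM for Efna4, and each of the 4 calls was lost in 5 to 9 of the settings, without either NPC library among them. Antisense gene models overlap 14.1% of the exon bases of Efna3 and 10.5% of Efna4, and the sources used here do not say whether strand was used in the quantification.

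**Figure D2:**
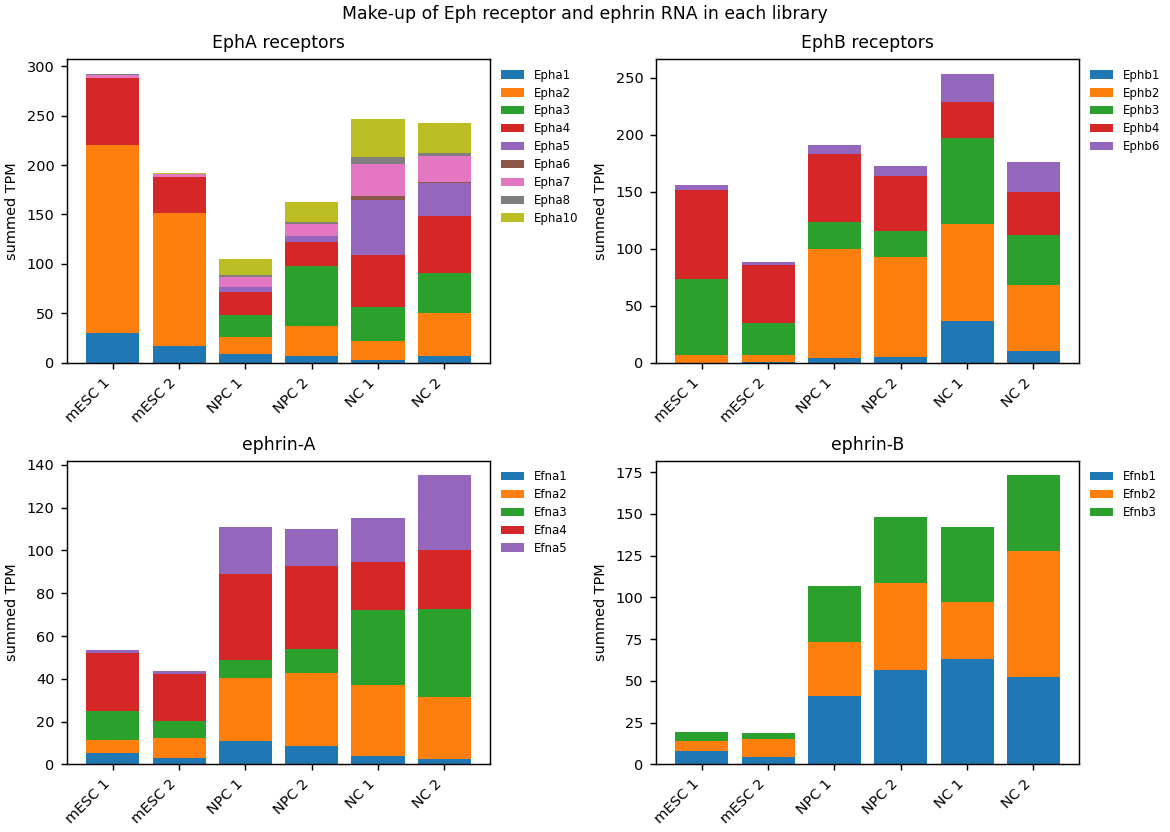
Summed TPM (y axis) of the EphA, EphB, ephrin-A and ephrin-B genes in each library (x axis), with 1 colour per gene stacked from 0. Epha2 fills 64.9% and 70.2% of the EphA bars in mESC, the highest shares in NC are 22.8% for Epha5 in replicate 1 and 24.0% for Epha4 in replicate 2, and the ephrin-B bars rise to 107 and 148 TPM in NPC, against 19.3 and 19.0 TPM in mESC.

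Plexins and neuropilins, the receptors of semaphorins, were higher in NPC than in mESC for 7 of 10 tested genes, higher in NC than in NPC for 7, and higher in NC than in mESC for all 10. The shares of all tested genes that were higher in these comparisons were 26.0%, 15.2% and 37.8%. Plexin-A RNA summed to 132 and 92.2 TPM in mESC, 208 and 211 TPM in NPC, and 467 and 468 TPM in NC. Plxna1 provided 83.1% and 84.4% of it in mESC and 28.5% and 38.5% in NC. Its own level stood at 109.7 and 77.8 TPM in mESC, 105 and 112 TPM in NPC, and 133 and 180.2 TPM in NC, which passed only in NC against mESC (log2 fold change 0.74, limma adjusted p = 0.0242), a call lost in 8 of the 15 settings, among them without mESC replicate 2, without either NPC library and without NC replicate 2 (highest adjusted p = 0.135). An antisense gene model overlaps 10.7% of the exon bases of Plxna1.

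The other plexin-A genes were higher at both steps. Plxna2, a receptor of class 6 semaphorins, had 49.3 and 44.3 TPM in NPC, against 2.48 and 1.87 TPM in mESC (log2 fold change of 3.92 with an SE of 0.19, adjusted p = 4.65e-05 by limma), and 180.0 and 144 TPM in NC (log2 fold change 1.76 over NPC, limma adjusted p = 0.00351). Plxna3, a receptor of Sema3f together with Nrp2, had 122.6 and 120.3 TPM in NC, against 44.9 and 49.4 TPM in NPC (log2 fold change of 1.35 with an SE of 0.22, adjusted p = 0.00882 by limma), and both were above the 19.6 and 12.3 TPM of mESC. Plxna4, which serves Sema3a and class 6 semaphorins, was at 0.253 and 0.194 TPM in mESC, 8.13 and 4.82 TPM in NPC, and 31.4 and 23.8 TPM in NC, and passed at each step (log2 fold changes 2.58 and 1.96). The 3 genes followed the same order in all 6 libraries, NC above NPC above mESC.

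Plexin-B RNA was mostly Plxnb2 and Plxnb1, receptors of class 4 semaphorins. Plxnb1 stood at 81.8 and 86.3 TPM in NPC, against 19.6 and 13.5 TPM in mESC (log2 fold change of 2.30 with an SE of 0.19, adjusted p = 0.000302 by limma), and at 144 and 159.8 TPM in NC (log2 fold change 0.85 over NPC, limma adjusted p = 0.0234). Plxnb2 was at 104 and 52.7 TPM in mESC, 119 and 137 TPM in NPC, and 186 and 188 TPM in NC, and passed in NC against mESC (log2 fold change 1.32, limma adjusted p = 0.00875), not without NC replicate 1 or NC replicate 2 (highest adjusted p = 0.0603). NC over NPC (limma adjusted p = 0.224) was called for Plxnb2 when either mESC library was left out (0.0410 in both cases). The single C and D plexins stayed lower. Plxnc1, the receptor of Sema7a, had 13.1 and 8.34 TPM in NC, 4.58 and 4.46 TPM in NPC, and 0.580 and 0.703 TPM in mESC, and passed at each step, the later one in only 4 of 15 settings. Plxnd1, which binds Sema3e without a neuropilin, had 11.5 and 11.4 TPM in NPC, against 3.95 and 3.34 TPM in mESC (log2 fold change 1.43, limma adjusted p = 0.00986), a call lost without any 1 library of the 2 stages (highest adjusted p = 0.0801), and 19.2 and 10.96 TPM in NC.

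Both neuropilins were higher in NC than in NPC, and Nrp1 was also higher in NPC than in mESC. Nrp1, the co-receptor of Sema3a, had 16.3 and 17.7 TPM in NPC, against 0.889 and 0.503 TPM in mESC (log2 fold change of 3.41 with an SE of 0.29, adjusted p = 0.000326 by limma), and 34.6 and 57.4 TPM in NC (log2 fold change 1.34 over NPC, limma adjusted p = 0.0204). Nrp2, the co-receptor of Sema3f, had 28.9 and 44.6 TPM in NPC, against 30.3 and 30.4 TPM in mESC, without passing (log2 fold change 0.24, limma adjusted p = 0.546). It then reached 213 and 133 TPM in NC (log2 fold change of 2.20 over NPC with an SE of 0.28, adjusted p = 0.00473 by limma). Nrp2 made up 97.2% and 98.4% of neuropilin RNA in mESC, a share of 64.0% and 71.6% in NPC, and one of 86.0% and 69.9% in NC.

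Of the semaphorins, 12 of 19 tested were higher and 2 lower in NPC than in mESC, and 11 were higher in NC than in NPC. Over all tested genes 26.0% were higher and 14.0% lower in NPC than in mESC, and 15.2% higher in NC than in NPC. Class 3 semaphorins summed to 15.1 and 15.2 TPM in mESC, 34.7 and 41.4 TPM in NPC, and 119 and 124 TPM in NC. Sema3f led in NPC and NC, with 75.1 and 69.4 TPM in NC, 20.6 and 25.0 TPM in NPC (log2 fold change of 1.63 with an SE of 0.19, adjusted p = 0.00377 by limma), and 4.20 and 4.93 TPM in mESC. Sema3a, the founding repellent of the class, had 28.0 and 21.7 TPM in NC, against 3.403 and 3.93 TPM in NPC (log2 fold change of 2.46 with an SE of 0.26, adjusted p = 0.00338 by limma), and 0.207 and 0.0439 TPM in mESC. Both rose in step with the stages and without overlap between them.

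The remaining class 3 genes stayed below 13 TPM. Sema3c had 4.95 and 7.25 TPM in NPC, against 0.707 and 0.629 TPM in mESC (log2 fold change 2.07, limma adjusted p = 0.00604), a call lost without either mESC library and without NPC replicate 2 (highest adjusted p = 0.0636). Sema3d had 1.55 and 1.04 TPM in NPC, against 0.0587 and 0.109 TPM in mESC (log2 fold change 1.07, limma adjusted p = 0.0148), lost without NPC replicate 1 and under quantile normalization (highest adjusted p = 0.0857). Sema3b, between 1.495 and 5.63 TPM, passed in no comparison, except in NC over mESC with a pseudocount of 5 (limma adjusted p = 0.0464) or without mESC replicate 1 (0.0344). Sema3e, the ligand of Plxnd1, led the class in mESC with 6.41 and 7.81 TPM, was at 0.707 and 1.33 TPM in NPC, and differed between the NC libraries, at 0.997 and 12.8 TPM. No comparison passed with all 6 libraries in the fit (limma adjusted p = 0.0940 for NPC over mESC, log2 fold change -2.02), but NPC over mESC was called when only these stages were fitted (limma adjusted p = 0.00665) and without NC replicate 1 or 2 (0.00661 and 0.00634). NC over NPC was called without NC replicate 1 (0.0192), and NC over mESC, as lower, without NC replicate 2 (0.00814).

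Class 4 semaphorins exchanged their leading gene between mESC and NPC. Sema4b held 53.6% and 55.7% of their RNA in mESC and 14.8% and 16.6% in NPC, and stood at 23.4 and 28.6 TPM in NPC, against 88.3 and 65.9 TPM in mESC (log2 fold change of -1.53 with an SE of 0.26, adjusted p = 0.00450 by limma, 0.0509 without mESC replicate 1). Sema4c, a ligand of Plxnb2, had 65.3 and 68.4 TPM in NPC, against 9.22 and 6.12 TPM in mESC (log2 fold change of 2.99 with an SE of 0.24, adjusted p = 0.000249 by limma). Sema4g had 46.4 and 55.6 TPM in NPC, against 15.1 and 6.81 TPM in mESC (log2 fold change of 2.21 with an SE of 0.33, adjusted p = 0.00275 by limma). In NC, Sema4c and Sema4g stood at 79.6 and 111 TPM and at 98.5 and 90.2 TPM, above NPC in both libraries but not past the threshold, which Sema4g passed when either mESC library was left out (limma adjusted p = 0.0309 and 0.0305 without replicates 1 and 2). A non-coding gene on the other strand overlaps 7.27% of the exon bases of Sema4c.

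Sema4a, which is also known from immune cells, was lowest in NPC. It had 2.95 and 2.18 TPM in NPC, against 18.4 and 14.8 TPM in mESC (log2 fold change of -2.30 with an SE of 0.28, adjusted p = 0.00121 by limma), and 23.2 and 15.4 TPM in NC (log2 fold change of 2.49 over NPC with an SE of 0.28, adjusted p = 0.00358 by limma). Both calls held under all 15 settings, and NC against mESC did not pass (log2 fold change 0.19, limma adjusted p = 0.589). Sema4b had 43.7 and 68.2 TPM in NC, above NPC (log2 fold change 1.0496, limma adjusted p = 0.0296), a call lost in 7 settings. Sema4d, the ligand of Plxnb1, stood at 27.4 and 20.4 TPM in mESC, 16.6 and 13.7 TPM in NPC, and 11.4 and 10.5 TPM in NC, and passed in NC against mESC (log2 fold change of -1.046 with an SE of 0.22, adjusted p = 0.00672 by limma). Sema4f had 14.1 and 11.4 TPM in NC, against 2.74 and 4.24 TPM in NPC (log2 fold change 1.63, limma adjusted p = 0.0110), and 6.17 and 4.42 TPM in mESC.

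All 4 class 6 semaphorins, ligands of plexin-A, rose at both steps. Of all tested genes, 26.0% were higher at the earlier step and 15.2% at the later one. The class 6 sum was 20.7 and 19.3 TPM in mESC, 74.7 and 81.3 TPM in NPC, and 242 and 247 TPM in NC. Sema6d had 14.9 and 18.7 TPM in NPC, against 0.299 and 0.131 TPM in mESC (log2 fold change of 3.87 with an SE of 0.24, adjusted p = 0.000101 by limma), and 59.1 and 47.5 TPM in NC (log2 fold change 1.61 over NPC, limma adjusted p = 0.00667). Sema6c was the most abundant, with 109 and 111 TPM in NC, 35.6 and 41.9 TPM in NPC, and 13.0 and 12.5 TPM in mESC (log2 fold changes 1.48 and 1.52 at the later and the earlier step). Sema6a, which binds Plxna2 and Plxna4, had 48.8 and 71.0 TPM in NC, 20.6 and 14.6 TPM in NPC, and 5.41 and 4.72 TPM in mESC. The libraries of the 3 stages did not overlap for any of these genes. Sema6b had 25.5 and 18.2 TPM in NC, against 3.60 and 5.99 TPM in NPC (log2 fold change 1.99, limma adjusted p = 0.00715), and 1.97 and 1.87 TPM in mESC, where the earlier step (log2 fold change 0.96, limma adjusted p = 0.0450) was lost in 13 of 15 settings. Its libraries did not overlap between stages either.

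Classes 5 and 7 differed in their timing. Sema5b, a membrane protein with thrombospondin repeats, had 56.5 and 97.3 TPM in NPC, against 22.7 and 12.4 TPM in mESC (log2 fold change of 2.08 with an SE of 0.38, adjusted p = 0.00579 by limma), a call lost without mESC replicate 2 and without NPC replicate 2 (highest adjusted p = 0.0636), and 69.2 and 46.3 TPM in NC, a range that overlaps NPC. Sema5a had 13.9 TPM in each NC library, against 4.90 and 5.12 TPM in NPC (log2 fold change of 1.31 with an SE of 0.24, adjusted p = 0.0123 by limma), and 1.16 and 0.747 TPM in mESC. Sema7a, which promotes axon growth through integrins, was at 5.48 and 3.49 TPM in mESC and 3.47 and 5.56 TPM in NPC, overlapping ranges (log2 fold change 0.01, limma adjusted p = 0.993). In NC it had 20.2 and 20.4 TPM (log2 fold change of 1.98 over NPC with an SE of 0.30, adjusted p = 0.00692 by limma).

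**Figure D3:**
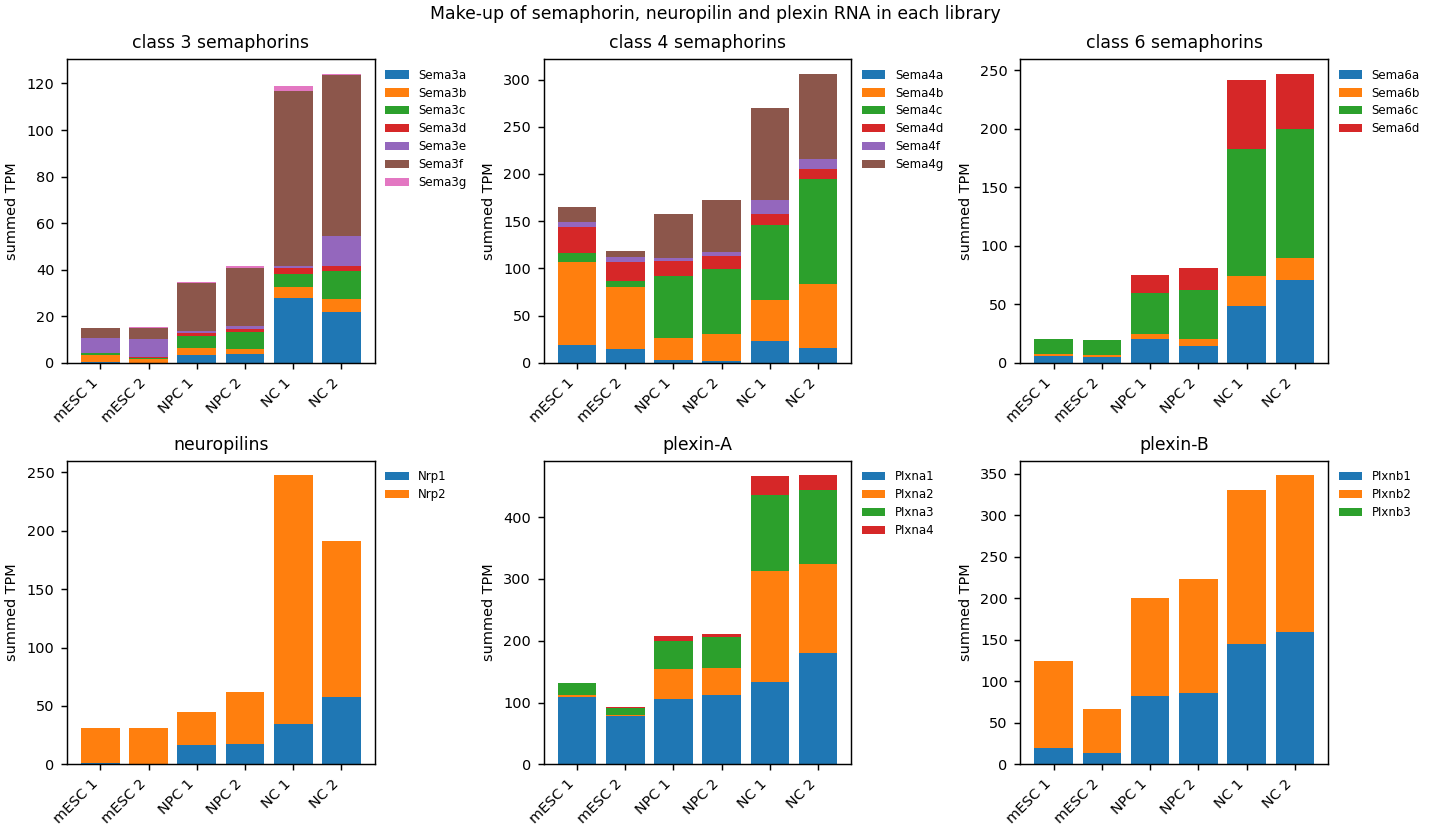
Summed TPM (y axis) of class 3, 4 and 6 semaphorins, neuropilins, plexin-A and plexin-B in each library (x axis), with 1 colour per gene stacked from 0. The plexin-A bars reach 467 and 468 TPM in NC, against 208 and 211 TPM in NPC, and Sema4b gives way to Sema4c and Sema4g between mESC and NPC.

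**Figure D4:**
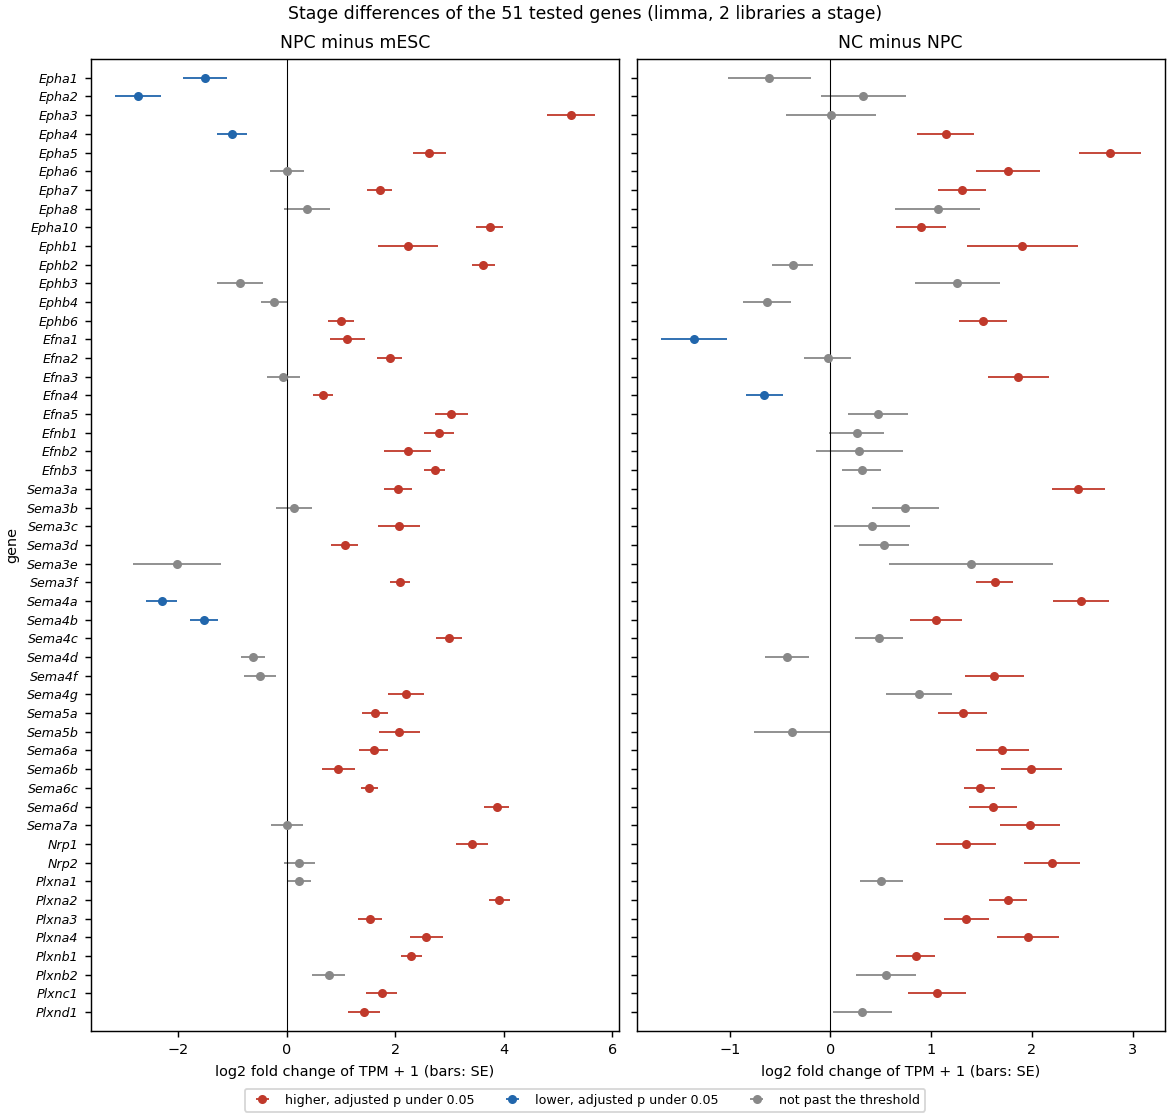
Log2 fold change of TPM + 1 (x axis, bars are the SE) for each of the 51 tested genes (y axis), NPC minus mESC on the left and NC minus NPC on the right. Red points are higher and blue points lower at a limma adjusted p under 0.05. There are 33 red and 5 blue points on the left, and 26 red and 2 blue points on the right. The left points of genes near 0 in mESC but not in NPC depend on the pseudocount of 1. Under the 15 settings, which include other pseudocounts, Epha3, listed at 0 in both mESC libraries, ranged from 3.08 to 8.52. Sema6d ranged from 2.06 to 5.79 and Epha5 from 1.06 to 5.25. Epha6, near 0 in NPC as well, stayed near 0.

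Ligands and receptors that are known to pair did not all move at the same step. At the earlier step Sema4c was higher in NPC than in mESC while its receptor Plxnb2 did not pass (log2 fold change 0.77, limma adjusted p = 0.0825, but 0.00894 without mESC replicate 1), and Plxnb1 was higher while its ligand Sema4d did not pass (log2 fold change -0.62, limma adjusted p = 0.0664). Sema4d was called lower in NPC with median-of-ratios scaling (limma adjusted p = 0.0207), quantile normalization (0.0131) and FPKM (0.0308). Sema3a, Nrp1 and Plxna4 were higher at both steps. For Sema3f and its receptors, Sema3f and Plxna3 were higher at both steps and Nrp2 at the later one. Among ephrins and Eph receptors, 7 of 8 ligands and 7 of 14 receptors were higher in NPC than in mESC, with 3 receptors lower. Of all tested genes, 26.0% were higher and 14.0% lower at this step. In NC against NPC, 1 of 8 ligands and 7 of 14 receptors were higher, with 2 ligands lower. Of all tested genes, 15.2% were higher and 10.1% lower there. Whether the steps differ between ligands and receptors was not tested.

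Of the 52 genes in 4 lists of signalling partners, all of which were tested, 32 were higher and 3 lower in NPC than in mESC, against 26.0% and 14.0% of all tested genes. In NC against NPC 22 were higher and 2 lower, against 15.2% and 10.1% of all tested genes. Without NPC replicate 1 or NPC replicate 2 the second count was 2 and 11. The collapsin response mediators, cytoplasmic proteins that carry the Sema3a signal to microtubules, were higher at both steps for 5 of 5. Dpysl4 had 126 and 158.9 TPM in NPC, against 2.61 and 2.77 TPM in mESC (log2 fold change 5.27, limma adjusted p = 2.96e-05), and Dpysl3 had 954 and 855 TPM in NC, against 152 and 185 TPM in NPC (log2 fold change 2.43, limma adjusted p = 0.00323). The smallest of these rises were those of Crmp1 in NPC against mESC (log2 fold change 1.83, limma adjusted p = 0.00468) and of Dpysl2 in NC against NPC (log2 fold change 1.12, limma adjusted p = 0.00971). Of the 9 co-receptors, 5 were higher in NPC than in mESC, led by the adhesion molecule Cntn2 with 65.7 and 147 TPM in NPC, against 4.22 and 1.96 TPM in mESC (log2 fold change 4.66, limma adjusted p = 0.000368). Chl1, an adhesion molecule of the L1 family, had 80.7 and 58.9 TPM in NC, against 2.40 and 2.33 TPM in NPC (log2 fold change 4.38, limma adjusted p = 0.00206). Flt1, a VEGF receptor also counted among the endothelial markers, was the co-receptor that fell at that step. It had 10.6 and 9.04 TPM in NC, against 41.3 and 31.5 TPM in NPC (log2 fold change -1.78, limma adjusted p = 0.00783).

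In the list of semaphorin effectors 6 of 14 were higher and 2 lower in NPC than in mESC, with a median log2 fold change of 0.37. Over all tested genes 26.0% were higher and 14.0% lower, so the count of lower effectors was near that share. The kinase Fyn was highest among them, at 61.8 and 64.5 TPM in NPC, against 14.3 and 10.4 TPM in mESC (log2 fold change 2.28, limma adjusted p = 0.000229), and the actin oxidase Mical1 lowest, at 20.5 and 20.1 TPM, against 38.3 and 27.4 TPM (log2 fold change -0.65, limma adjusted p = 0.0466). Limk1, a kinase that acts on actin through cofilin, had 131 and 104 TPM in NC, against 44.6 and 58.7 TPM in NPC (log2 fold change 1.18, limma adjusted p = 0.00849), and of the 6 effectors higher at that step Farp1 had the smallest log2 fold change (0.67, limma adjusted p = 0.0459). Of 24 Eph and ephrin effectors, 16 were higher and 1 lower in NPC than in mESC, with a median of 1.11. Kalrn, an exchange factor of dendritic spines, had 51.6 and 56.6 TPM in NPC, against 5.86 and 2.74 TPM in mESC (log2 fold change 3.44, limma adjusted p = 0.000432), while Tiam1, another exchange factor, had 19.1 and 21.0 TPM, against 33.5 and 30.4 TPM (log2 fold change -0.65, limma adjusted p = 0.0194). Between NC and NPC 6 of the 24 were higher, where 15.2% of all tested genes were, with Anks1b at the top (20.2 and 17.1 TPM in NC, 2.29 and 4.15 TPM in NPC, log2 fold change 2.25, limma adjusted p = 0.00700), and 1 lower, the phosphatase Ptpn13 (31.3 and 22.6 TPM in NC, 60.2 and 55.3 TPM in NPC, log2 fold change -1.09, limma adjusted p = 0.0180).

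Several members are neighbours in the genome. On chromosome 3 (mm10), Efna1 (89271733 to 89281142), Efna3 (89313899 to 89322965) and Efna4 (89333390 to 89338028) lie in a row on the minus strand, 32757 and 10425 bases apart, and Efna3 was higher while Efna1 and Efna4 were lower in NC than in NPC. On chromosome 5, Sema3d (12383385 to 12588948), Sema3a (13125414 to 13602565) and Sema3e (14025276 to 14256689) lie in a row on the plus strand. NC held 24.8 TPM ± 4.44 of Sema3a and 2.30 ± 0.277 of Sema3d (SD, n = 2). Ephb2 (136647539 to 136835988) and Epha8 (136929419 to 136956816) are 93431 bases apart on chromosome 4, and NPC held 91.8 TPM ± 5.94 of Ephb2 and 1.45 ± 0.318 of Epha8. Sema3b and Sema3f on chromosome 9 are 72271 bases apart, and Sema3f was higher at both steps while Sema3b passed at neither.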

How the data were processed

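RNA of 6 libraries (poly(A)-enriched and rRNA-depleted, Ion Total RNA-Seq Kit v2, Ion Proton) was quantified by the authors. Per the submitters' processing notes, the genome build was mm10 and the tools included StringTie 2.1.5, STAR 2.7.9a, cutadapt 3.4 and FastQC, with DESeq2 and R 4.0.3. The sources used here give neither the annotation release nor the strand setting. Per the file headers, the deposited tables hold TPM, FPKM and coverage per gene. TPM was the main unit and FPKM an alternative. Depth in aligned bases was estimated from the most frequent ratio of deposited coverage to FPKM, at 1.57 to 2.27 Gb per library. Of the genes used for this estimate, 38.3% to 39.7% lay at that ratio. No read counts were used, so counting error per gene is unknown, and a gene at 0 is only listed at 0.

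Genes with at least 1 TPM in at least 2 libraries (20232) were fitted on log2(TPM + 1), all 6 libraries in 1 model without a block, with limma 3.58.1 (R 4.3.3) and a Benjamini-Hochberg threshold of 0.05 over all genes, leaving 3 residual degrees of freedom. Fold changes on this scale understate the change of low genes. The fit was tested on simulated data. The members and lists were chosen with earlier results of these data known. Values per library were to be given for members with a stage mean of at least 20 TPM, the 6 called members highest and the 6 lowest in fold change in the first 2 comparisons, and the leading member of each subfamily, and for the called partner genes highest and lowest in each list. Promoters came from RefSeq (GRCm38.p6), and protein sequences were not used here. Alternatives were other pseudocounts, filters and scalings, FPKM, fits of 2 groups, a replicate block and leaving out each library.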

Additional observations from a re-analysis of the deposited data

How the results depend on the processing

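With 2 libraries a stage, the count of members called held within 1.5 times under the 9 settings that keep all libraries (other pseudocounts, filters, scalings, FPKM, only the 2 groups compared, replicate block). The summed levels of the subfamilies depend on the scale and the unit. Under median-of-ratios scaling or in FPKM, which is another unit, 59 of 84 stage means of these sums moved by more than 1 SD of the 2 libraries. A change of scale or unit shifts such sums by itself, so this count does not show whether differences between stages hold. Leaving out 1 library at a time gave 27 to 37 members, 25 to 34 partners and 4032 to 8484 genes in NPC against mESC, 1 to 24 members, 2 to 20 partners and 309 to 4156 genes in NC against NPC, 39 to 42 members, 35 to 40 partners and 9499 to 11187 genes in NC against mESC. Without NPC replicate 1 or 2, NPC against mESC had 4621 or 4032 genes changed, and NC against NPC 309 or 1276, with 3315 without NC replicate 2. With no filter beyond a TPM above 0, NC against NPC had 3166 genes changed and 15 signalling partners changed. The cause was not tested. With the replicate number as a block, 38, 25 and 43 members and 7368, 4247 and 11575 genes were called for NPC over mESC, NC over NPC and NC over mESC, and same-numbered libraries deviated from their stage means with correlations of 0.05, -0.07 and -0.08 over 20232 genes, so the numbers are not taken as a pairing. The block brought in Ephb3 in NC over NPC (limma adjusted p = 0.0274) and Sema3e in NPC over mESC (0.0442). Other scalings brought in Ephb4 in NC over NPC (0.0357 with quantile normalization, 0.0394 with FPKM), Sema4f in NPC over mESC (0.0361 with quantile normalization) and Sema4b in NC over mESC, as lower (0.0223 with median-of-ratios scaling, 0.0472 with quantile normalization, 0.0295 with FPKM).

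No member called in a comparison changed sign in it under the 15 settings, while 19 uncalled results did, and their log2 fold changes follow. The cause was not tested. With a pseudocount of 5 they were, in NC against NPC Epha3 -0.0093. With median-of-ratios scaling they were, in NPC against mESC Sema3b -0.013, Sema7a -0.18 and in NC against NPC Epha3 -0.076 and in NC against mESC Epha4 -0.17, Sema4a -0.11, Efna4 -0.28. With quantile normalization they were, in NPC against mESC Sema3b -0.19, Sema7a -0.38 and in NC against NPC Epha3 -0.17 and in NC against mESC Epha4 -0.13, Sema4a -0.32, Efna4 -0.43. With FPKM they were, in NPC against mESC Sema7a -0.067 and in NC against NPC Epha3 -0.16 and in NC against mESC Epha4 -0.13, Sema4a -0.072, Efna4 -0.24. With 1 library left out at a time, they ranged over both signs. In NPC against mESC the ranges were Ephb4 -0.55 to 0.073, Efna3 -0.43 to 0.32, Sema3b -0.23 to 0.52, Sema7a -0.27 to 0.28, Plxna1 -0.012 to 0.48, Nrp2 -0.067 to 0.54. In NC against mESC the ranges were Efna1 -0.55 to 0.077, Epha4 -0.30 to 0.58, Ephb3 -0.20 to 1.00, Efna4 -0.12 to 0.16, Sema3e -2.02 to 0.77, Sema4a -0.10 to 0.47. In NC against NPC the ranges were Epha2 -0.24 to 0.89, Epha3 -0.70 to 0.72, Efnb2 -0.28 to 0.85, Sema5b -0.77 to 0.0027, Efna2 -0.13 to 0.076, Plxnd1 -0.061 to 0.70, Sema3c -0.075 to 0.90. TPM hold no read counts, so counting error per gene is not known.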

Other observations

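The 2 libraries of a stage were not equally close. Over all tested genes the SD of the log2 difference between replicates was 0.50 in mESC, 0.41 in NPC and 0.60 in NC. In mESC, 39 of the 51 tested members were higher in replicate 1, against 55.0% of all tested genes, and in NPC and NC 17 and 28 were, against 44.5% and 46.2%. The NC libraries also differed in marker lists, with summed neural progenitor markers at 1186 and 386 TPM, epithelial markers at 80.6 and 312 TPM, and astrocyte and oligodendrocyte markers at 99.4 and 37.4 TPM in replicates 1 and 2. Among the members, Ephb1 stood at 37.0 and 10.2 TPM and Sema3e at 0.997 and 12.8 TPM in these libraries. The part of the marker differences in these values was not tested.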
